A study of Homo sapiens with 45 samples.

Results

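The 10 genes described here are subunits, inhibitors and feedback targets of the transcription factor NF-kappa-B, chosen by symbol from the count tables. The rule itself used no measured value, but the members were chosen with earlier results of these data known. They are NFKB1, NFKB2, RELA and RELB, which encode DNA-binding subunits, NFKBIA and NFKBIE, which encode inhibitors, TNFAIP3, which encodes a feedback enzyme, and BIRC3, ICAM1 and TNFAIP2, which are induced targets. All 10 were found among the 28278 names of the table of 8 libraries and in both Scramble tables, and all 10 passed the filter on low counts that left 13933 genes to test. The question put to them was whether NF-kappa-B output changed as a whole when HNRNPK was depleted.

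All RNA was from HCT116 cells, a long-established line from a human colon cancer, and the labels name no edit of the genome and no added cytokine. Every library received siRNA with a lipid transfection reagent at 25 nM and was collected after 72 hours. The siNTC5 group (4 libraries) and the Scramble group (2 libraries) received nontargeting control siRNA, and the siHNRNPK group (4 libraries) received siRNA against HNRNPK, which encodes an RNA-binding protein of the nucleus. Replicates 1 and 2 of siNTC5 and siHNRNPK were made with a TruSeq stranded mRNA kit and replicates 3 and 4 with a stranded mRNA Ligation kit. Both Scramble libraries were made with the TruSeq kit, from RNA purified with another kit, and were counted in tables of their own. Nothing in the labels says whether replicates were separate cultures, so p-values measure the spread between these libraries, which may be technical. In bulk RNA, fewer cells with a transcript and less transcript per cell cannot be told apart.

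NF-kappa-B is a family of dimers built from Rel-homology subunits. In resting cells the dimers are held in the cytoplasm by I-kappa-B proteins, and a kinase complex downstream of cytokine receptors, Toll-like receptors and antigen receptors marks those inhibitors for destruction. The freed dimers bind kappa-B sites and switch on target genes, among which are the inhibitors themselves, a loop that ends the response. In colon epithelium the pathway is best known for inflammatory gene expression and for protection from cell death. The canonical arm acts through dimers of RELA with the product of NFKB1, and the noncanonical arm through RELB with the product of NFKB2.

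The promoters of 4 members are shown because they hold matches to the stricter kappa-B consensus in the 200 bases before a transcription start. These are RefSeq sequences of GRCh38.p14, read 5′ to 3′ on the strand of the gene, and capitals mark the consensus matches. The NFKBIA stretch lies at chr14:35404750-35404949 on the minus strand, TNFAIP3 at chr6:137867059-137867258 on the plus strand, BIRC3 at chr11:102317284-102317483 on the plus strand, and NFKB1 at chr4:102501159-102501358 on the plus strand.
NFKBIA: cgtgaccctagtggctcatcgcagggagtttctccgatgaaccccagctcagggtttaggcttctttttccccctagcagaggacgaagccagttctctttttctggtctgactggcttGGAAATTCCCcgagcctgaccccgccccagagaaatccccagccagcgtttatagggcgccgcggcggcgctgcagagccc
TNFAIP3: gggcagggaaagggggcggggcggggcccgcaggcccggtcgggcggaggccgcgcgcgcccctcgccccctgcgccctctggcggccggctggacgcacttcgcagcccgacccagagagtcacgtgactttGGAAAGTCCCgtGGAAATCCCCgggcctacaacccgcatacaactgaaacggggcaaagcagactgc
BIRC3: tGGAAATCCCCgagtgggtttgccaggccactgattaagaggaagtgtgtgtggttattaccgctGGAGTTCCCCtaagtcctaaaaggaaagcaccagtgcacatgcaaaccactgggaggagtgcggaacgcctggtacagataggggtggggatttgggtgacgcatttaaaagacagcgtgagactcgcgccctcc
NFKB1: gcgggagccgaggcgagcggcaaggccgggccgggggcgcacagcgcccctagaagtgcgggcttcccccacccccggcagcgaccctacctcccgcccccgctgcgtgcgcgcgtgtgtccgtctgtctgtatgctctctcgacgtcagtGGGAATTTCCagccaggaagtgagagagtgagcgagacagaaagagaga

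The NFKBIA stretch holds 1 match, 81 to 72 bases before the start. TNFAIP3 holds a pair, at 67 to 58 and 55 to 46 bases before the start, and BIRC3 holds a pair at 199 to 190 and 135 to 126. The NFKB1 match lies 49 to 40 bases before the start of one of its RefSeq windows. Windows of 250 bases before to 50 bases after a start were given for 8 members, 12 windows in all, and not for RELB and NFKBIE. A looser motif of GGG, any 5 bases and CC, searched on both strands with overlapping matches merged, was found in all 12 windows, against 58.7% of the 35116 windows of all genes. The stricter search used the kappa-B consensus, which also restricts the middle bases, and each of its matches is a match to the looser motif. It was found in 5 of the 8 members, NFKB1, NFKB2, NFKBIA, TNFAIP3 and BIRC3, against 13.3% of all genes with a window. By window it was found in 6 of the 12, against 11.3% of all windows. The members were chosen as subunits and targets of NF-kappa-B, so these shares are no independent support for that choice. The NFKB2 matches lie in windows of 2 of its 3 starts and are drawn in the plot of motif matches. RELA, ICAM1 and TNFAIP2 held the looser motif alone. Both searches require GGG and CC at the ends, so a kappa-B site that departs from this would be missed. A match is a description of letters and no measure of binding, since binding of NF-kappa-B was not measured.

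**Figure D1:**
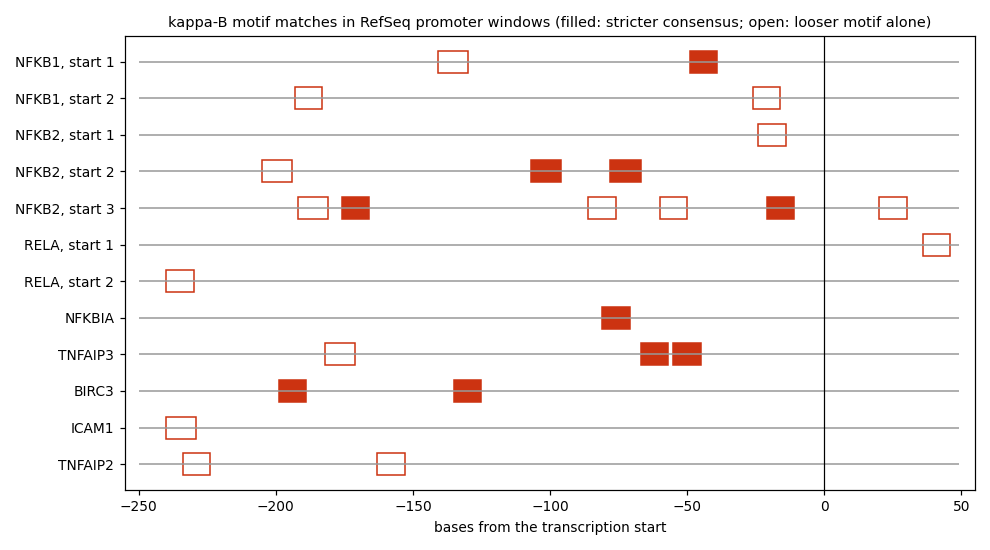
Kappa-B motif matches in the 12 RefSeq promoter windows of 8 members. The horizontal axis is the distance in bases from the transcription start, filled boxes are matches to the stricter consensus, and open boxes match the looser motif alone. The filled boxes lie in windows of NFKB1, NFKB2, NFKBIA, TNFAIP3 and BIRC3.

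Library totals ran from 12107280 to 23633851 counts in the 8 libraries and were 59209169 and 55007171 in Scramble. The 10 members together took 0.0452% to 0.0509% of counts in siNTC5, 0.0733% to 0.0906% in siHNRNPK and 0.0551% in both Scramble libraries. HNRNPK itself was 884 ± 78.0 CPM, TMM-scaled counts relative to library size (SD, n = 4), in siNTC5 and 199 ± 45.3 in siHNRNPK, 22.4% of control (two-sided exact permutation p = 0.0286, the smallest that 4 against 4 allows). Scramble held 815 and 851 CPM of HNRNPK. Of the siNTC5 libraries, replicate 2 stood apart from its kit partner, with a chi-square per degree of freedom of 8.18 over genes, where the other pairs of the same kit among the 8 libraries gave 2.24 to 2.49 and the Scramble pair gave 8.40. Of the 10 epithelial markers, EPCAM, KRT8, KRT18, KRT19, CDH1 and ELF3 were plainly counted, while CDX1 and LGALS4 had at most 1 count in a library and VIL1 at most 6.

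After HNRNPK siRNA all 10 members were higher than in siNTC5 at an adjusted p under 0.05 (edgeR quasi-likelihood test, Benjamini-Hochberg over 13933 genes). Over all genes tested, 35.5% were higher at that threshold and 36.1% were lower. The rise was uneven among the members. The inhibitor NFKBIA, the enzyme TNFAIP3 and the targets BIRC3 and ICAM1 rose by more than 1 on the log2 scale, a size that 7.47% of all genes reached upward with the same test. The DNA-binding subunits rose by 0.17 to 0.64. The members' median log2 fold change was 0.75, against -0.0042 over all genes. In 8 of the 10, every siHNRNPK library lay above every siNTC5 library, a separation that 28.5% of all genes showed upward; RELA and RELB overlapped. In the same libraries the summed CPM of the 10 epithelial markers ran from 2860 to 3296 in siNTC5 and from 4545 to 5443 in siHNRNPK. Of the 7 epithelial markers tested 5 were higher, KRT8 (1159 to 2310 CPM) and KRT18 (651 to 1729) making most of the sum, while KRT19 fell from 806 to 333 CPM and CDX2 was not called. The summed CPM of the 14 leukocyte, endothelial and fibroblast markers ran from 64.6 to 100.2 and from 100.3 to 146.7, most of it COL1A1 and CD68, with CD3E at 0 in every library and PTPRC at no more than 2 counts; the part of either in the members' rise was not tested.

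**Figure D2:**
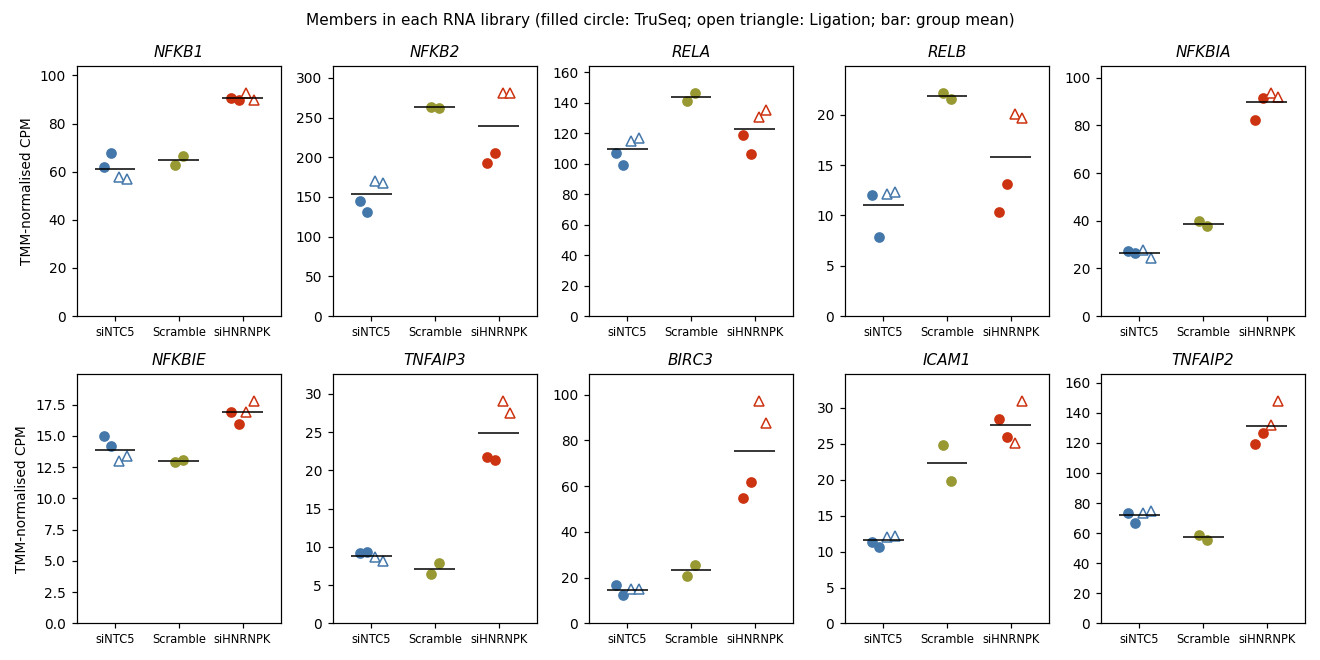
TMM-normalised CPM of each member in every RNA library, each panel with its own vertical axis from 0. Filled circles are TruSeq libraries, open triangles are Ligation libraries and bars are group means. NFKB1, NFKBIA, NFKBIE, TNFAIP3, BIRC3, ICAM1 and TNFAIP2 were higher in every siHNRNPK library than in every library of both control groups, whereas RELB was highest in Scramble.

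NFKB1 encodes p105, the precursor of the p50 subunit of the canonical dimer, and lies at chromosome 4, 102501359 to 102617302 (GRCh38.p14, as are all positions below). It was 62.3 and 67.6 CPM in siNTC5 replicates 1 and 2, and 57.3 and 56.7 in replicates 3 and 4. In siHNRNPK it was 90.6, 89.6, 93.1 and 90.3 CPM in replicates 1 to 4. The 4 depleted libraries lay close together and above all controls. NFKB1 rose by 0.57 on the log2 scale (SE 0.056, adjusted p = 3.00e-08).

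NFKB2 encodes p100, the precursor of p52 and itself an inhibitor that holds RELB, and lies at chromosome 10, 102394110 to 102402529. Its CPM was 145, 132, 169 and 167 in siNTC5 replicates 1 to 4. In siHNRNPK it was 193, 205, 282 and 282. The groups did not overlap, and within the depleted group the Ligation libraries were the higher pair. NFKB2 rose by 0.64 on the log2 scale (SE 0.051, adjusted p = 2.16e-09).

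RELA encodes p65, the subunit that carries the transactivation domain of the canonical dimer, and lies at chromosome 11, 65653601 to 65663857. It was 107, 99.1, 114 and 116 CPM in siNTC5 and 119, 106, 132 and 136 in siHNRNPK. In siHNRNPK replicate 2 RELA was below 3 of the 4 controls. RELA had the smallest log2 fold change of the members, 0.17 (SE 0.049, adjusted p = 0.00485). With the TruSeq libraries alone it was 0.13 with an adjusted p of 0.132, and with no kit term the adjusted p was 0.0909.

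RELB encodes the subunit of the noncanonical arm and lies at chromosome 19, 45001464 to 45038192. It was 12.04, 7.81, 12.1 and 12.3 CPM in siNTC5, so that replicate 2 was well below the other controls. In siHNRNPK it was 10.3 and 13.1 CPM in the TruSeq libraries, and 20.1 and 19.9 in the Ligation libraries. The TruSeq libraries of the groups overlapped and the Ligation libraries did not. Over both kits the log2 fold change was 0.50 (SE 0.13, adjusted p = 0.00227), and it was 0.27 with TruSeq alone (adjusted p = 0.301) and 0.71 with Ligation alone (adjusted p = 1.05e-06). Without a kit term the adjusted p was 0.0574.

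NFKBIA encodes I-kappa-B alpha, the inhibitor that is destroyed on stimulation and then made again as an early target, and lies at chromosome 14, 35401513 to 35404749. Its siNTC5 values were 27.3, 26.6, 27.7 and 24.4 CPM. In siHNRNPK they were 82.3, 91.3, 94.0 and 92.5. Every depleted library was far above the control range in both kits. NFKBIA rose by 1.76 on the log2 scale (SE 0.063, adjusted p = 4.58e-14), a 3.40-fold difference, and 97.0% of all genes tested had a lower one.

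NFKBIE encodes I-kappa-B epsilon, a related inhibitor, and lies at chromosome 6, 44258166 to 44265551. It was 15.1, 14.2, 12.9 and 13.3 CPM in siNTC5 and 16.9, 16.0, 17.0 and 18.0 in siHNRNPK. The groups came close but did not overlap. NFKBIE rose by 0.29 on the log2 scale (SE 0.088, adjusted p = 0.00670), and with TruSeq alone it was 0.18 with an adjusted p of 0.265. The interval at 95% for NFKBIA ran from 1.64 to 1.89 and that for NFKBIE from 0.12 to 0.46, with no overlap.

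TNFAIP3 encodes A20, an enzyme that edits ubiquitin and shuts down signalling upstream of the kinase, and lies at chromosome 6, 137866349 to 137883312. It was 9.25, 9.27, 8.66 and 8.05 CPM in siNTC5. In siHNRNPK it was 21.8 and 21.4 CPM in the TruSeq libraries and 29.3 and 27.7 in the Ligation libraries. All depleted libraries were above all controls, and the Ligation pair was the higher. The log2 fold change was 1.49 (SE 0.11, adjusted p = 4.34e-10).

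BIRC3 encodes cIAP2, a ubiquitin ligase of the tumour necrosis factor receptor complex that protects from cell death, and lies at chromosome 11, 102317484 to 102339403. It was 16.9, 12.3, 14.9 and 14.9 CPM in siNTC5 and 55.2, 61.7, 97.9 and 88.1 in siHNRNPK. No libraries of the groups were near one another, and the depleted group spread over a wide range that followed the kit. BIRC3 had the largest log2 fold change of the members, 2.33 (SE 0.11, adjusted p = 1.96e-12), a 5.03-fold difference, and 98.2% of all genes tested had a lower one.

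ICAM1 encodes an adhesion molecule that binds leukocyte integrins, and lies at chromosome 19, 10271120 to 10286615. It was 11.4, 10.7, 11.9 and 12.2 CPM in siNTC5 and 28.5, 25.9, 25.2 and 31.2 in siHNRNPK. The groups were far apart and the kits were mixed within each. The log2 fold change was 1.27 (SE 0.088, adjusted p = 3.47e-10).

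TNFAIP2 encodes a cytokine-induced protein linked to membrane protrusions, and lies at chromosome 14, 103121469 to 103137439. It was 73.6, 66.9, 73.0 and 74.0 CPM in siNTC5 and 119, 126, 132 and 149 in siHNRNPK. Every depleted library was above every control. The log2 fold change was 0.87 (SE 0.054, adjusted p = 7.09e-11). RefSeq places lncRNA genes across parts of NFKB1, RELA, TNFAIP3, ICAM1 and TNFAIP2, and the strand that was counted is not given in the sources used here. WAKMAR2, over TNFAIP3, had at most 6 counts in a library and LINC00677, over TNFAIP2, at most 5; the others are not named in the table of 8 libraries.

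The larger rise in one kit was tested as an interaction of treatment with kit. No member passed an adjusted p of 0.05 in the edgeR interaction test, where 0.129% of all genes did. In the DESeq2 Wald test none of the 7 members with an adjusted p passed. At an unadjusted p under 0.05 there were 4 members and 1639 of the 13933 genes. The largest was BIRC3, whose fold change was larger in the Ligation libraries by 0.62 on the log2 scale (SE 0.17, adjusted p = 0.143), from means of 14.6 and 58.4 CPM in TruSeq and 14.9 and 93.0 in Ligation. TNFAIP3 followed with 0.55 (adjusted p = 0.196), NFKB2 with 0.22 (adjusted p = 0.302) and NFKB1 with 0.22 (adjusted p = 0.380), all in the same direction. Calls over all genes moved too when a library or the filter was left out. Without siNTC5 replicate 2, where 4.24% of all genes passed, BIRC3 (0.83, adjusted p = 8.52e-05), RELB (0.74, adjusted p = 0.0242) and NFKB2 (0.27, adjusted p = 0.0361) were among them, and without any filter on low counts, where 1.11% passed, BIRC3 was (adjusted p = 0.00591). Without siNTC5 replicate 1, 2.58% of all genes passed and no member did. HNRNPK was lower in the Ligation libraries of both groups, at 157 and 164 CPM against 250 and 223 in TruSeq after HNRNPK siRNA, and at 822 and 814 against 934 and 967 in siNTC5. On the log2 scale HNRNPK fell by 2.36 with Ligation alone and by 2.00 with TruSeq alone, and its part in the kit difference was not tested.

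**Figure D3:**
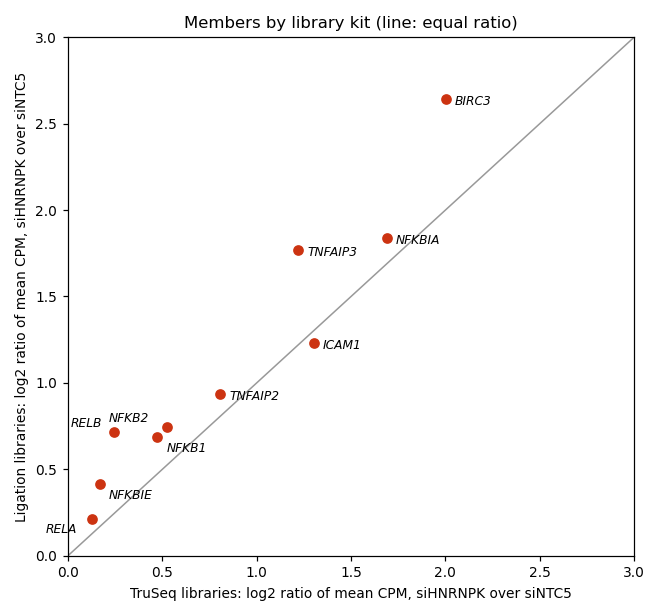
Log2 ratio of mean CPM, siHNRNPK over siNTC5, for each member in the TruSeq libraries (horizontal axis) and the Ligation libraries (vertical axis), with a line of equal ratios. Each point is 1 member and each mean is of 2 libraries. All members but ICAM1 lie above the line, and BIRC3 lies highest.

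The Scramble libraries gave another control for the same members, in a fit of all 10 libraries on the 25527 names that the tables share, with 14642 genes tested. The siRNA, the purification kit, the count table and the depth all changed together between Scramble and siNTC5 and cannot be told apart. Against siNTC5, 6 members were higher in Scramble where 37.5% of all genes were, and 1 was lower where 31.8% of all genes were. The members' median was 0.53 on the log2 scale and that of all genes 0.039. The share of higher genes among all called was 54.2% here, 43.2% with upper-quartile scaling (median of all genes -0.096) and 35.1% with plain library totals (median -0.20). The 6 higher members stayed called under each of these scalings.

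RELB was 22.1 and 21.5 CPM in Scramble, above every siNTC5 and every siHNRNPK library. Its log2 difference from siNTC5 was 1.28 (SE 0.14, adjusted p = 2.42e-07). NFKB2 was 264 and 263 CPM, above every siNTC5 library and within the siHNRNPK range, a difference of 0.98 from siNTC5 (adjusted p = 6.79e-11). RELA was 141 and 146 CPM, also above every library of the other groups, a difference of 0.50 (adjusted p = 5.59e-07).

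The remaining higher members lay between the other groups. ICAM1 was 24.8 and 19.9 CPM in Scramble, 1.00 above siNTC5 (adjusted p = 3.34e-07). BIRC3 was 20.9 and 25.8 CPM, 0.88 above (adjusted p = 3.45e-05). NFKBIA was 40.0 and 37.6 CPM, 0.57 above (adjusted p = 3.78e-06). For each of these the Scramble libraries were above every siNTC5 library and below every siHNRNPK library.

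The others did not follow. TNFAIP2 was 58.9 and 55.3 CPM in Scramble, lower than in every siNTC5 library, a difference of -0.27 (adjusted p = 0.00211). TNFAIP3 was 6.45 and 7.87 CPM, with a difference of -0.23 (adjusted p = 0.146) that passed the threshold with upper-quartile scaling, with library totals, with TruSeq alone and with the groups compared alone. NFKBIE was 12.9 and 13.1 CPM, a difference of -0.12 (adjusted p = 0.280) that passed with upper-quartile scaling (-0.25, adjusted p = 0.0249) and with library totals (-0.35, adjusted p = 0.00291). NFKB1 was 62.7 and 66.7 CPM, a difference of 0.041 (adjusted p = 0.603) whose sign changed with the scaling.

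Set against Scramble in place of siNTC5, HNRNPK siRNA gave 7 members higher and 3 lower, where 38.8% of all genes were higher and 42.4% lower. This comparison shares its siHNRNPK libraries with that against siNTC5, so the values stand side by side and are not independent. TNFAIP3 was 1.71 higher than in Scramble and 1.49 higher than in siNTC5, BIRC3 1.45 and 2.33, NFKBIA 1.19 and 1.76, and TNFAIP2 1.13 and 0.87. NFKB1 was 0.53 and 0.57 higher, and NFKBIE 0.40 and 0.29. The subunits other than NFKB1 turned. RELB was -0.78 against Scramble (SE 0.14, adjusted p = 7.12e-05) and 0.50 against siNTC5. NFKB2 was -0.35 (adjusted p = 3.79e-05) and 0.64, and RELA -0.33 (adjusted p = 4.83e-05) and 0.17. These 3 subunits were below Scramble under each alternative scaling, filter and test that was run.

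ICAM1 was 0.27 above Scramble (adjusted p = 0.0336) and 1.27 above siNTC5. Its call against Scramble was lost without the filter on low counts (adjusted p = 0.0679), and in turn without siHNRNPK replicate 1 (0.21, adjusted p = 0.142), siHNRNPK replicate 4 (0.25, adjusted p = 0.0502) or Scramble replicate 2 (0.10, adjusted p = 0.450). With all 6 control libraries as 1 group, NFKB2 (0.32, adjusted p = 0.301), RELA (0.018, adjusted p = 0.918) and RELB (0.071, adjusted p = 0.878) lost their calls, while the other 7 members stayed higher. In that fit 3337 of 13460 genes were higher. The members' median was 0.46 against Scramble, where that of all genes was -0.039. With upper-quartile scaling the share of higher genes among all called moved from 47.7% to 56.6% and the median of all genes to 0.15.

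**Figure D4:**
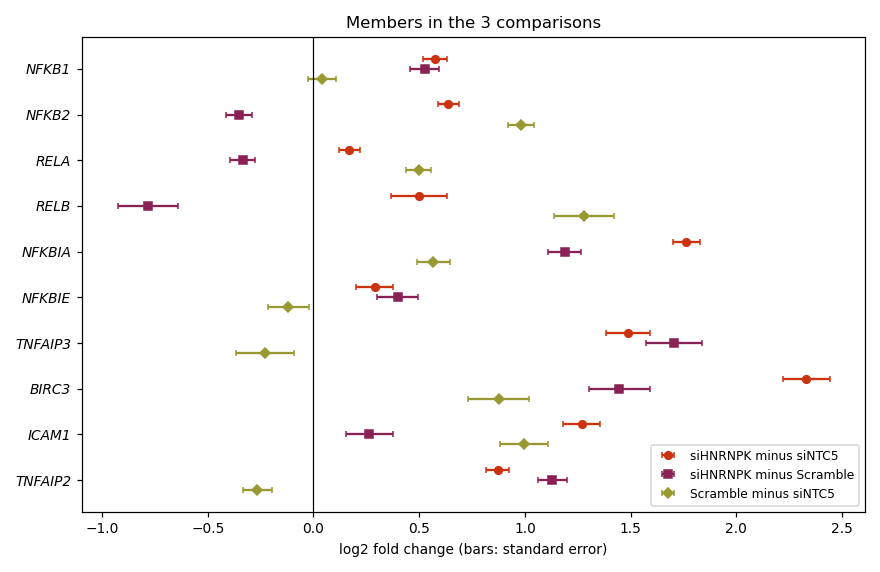
Log2 fold changes of the 10 members in the comparisons among siHNRNPK, siNTC5 and Scramble, with bars of 1 standard error from edgeR. Positive values are higher in the group named on the left of each difference. NFKB2, RELA and RELB are positive against siNTC5 and negative against Scramble, whereas NFKBIA, TNFAIP3, BIRC3 and TNFAIP2 are positive against both.

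The genes around the members were taken as 118 other names of the pathway in 6 lists, of which 87 were tested. Of these 39 were higher and 28 lower after HNRNPK siRNA against siNTC5, with a median of 0.058. These are 44.8% and 32.2% of the tested names, where 35.5% and 36.1% of all genes were called. With all 6 control libraries as 1 group the counts were 25 higher and 25 lower. Calls over all genes were also fewer in that fit, 3337 higher and 3628 lower of 13460. Among the other Rel and I-kappa-B genes, 2 of 5 tested were higher and none lower. REL, which encodes the remaining transactivating subunit, rose from 45.4 ± 3.92 to 64.3 ± 1.91 CPM (SD, n = 4, log2 fold change 0.50). NKRF, which encodes a repressor of kappa-B promoters, rose by 0.69, from a low level. Against Scramble the direction was reversed, at -3.33 (adjusted p = 2.56e-14 in edgeR). NKRF had 505 counts over the 8 libraries together, and 2408 and 2331 in the Scramble libraries.

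The kinase genes and their activators moved both ways, 7 higher and 2 lower of 10. IKBKB, the catalytic subunit of the canonical kinase, rose from 48.7 ± 3.48 to 70.2 ± 2.52 CPM (log2 fold change 0.53), IKBKE by 0.52 and MAP3K14, the kinase of the noncanonical arm, by 0.34. MAP3K7, which encodes TAK1, the kinase above the complex, fell from 77.6 ± 4.20 to 43.9 ± 3.28 CPM, a log2 fold change of -0.82, and its partner TAB1 changed by -0.76. Of 26 receptors and adaptors tested, 9 were higher and 12 lower. IRAK2 (1.21), TLR3 (1.08) and MALT1 (0.58) had the largest rises under the rule for named genes, and IL1RAP (-1.14), IRAK4 (-1.04) and MYD88 (-0.997), which serve interleukin-1 and Toll-like receptors, the largest falls.

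The other negative regulators split, with 6 of 14 higher and 5 lower. CYLD, a deubiquitinase that restrains the kinase, rose from 23.6 ± 2.30 to 39.8 ± 2.49 CPM (0.75), and TAX1BP1 and OTUD7B rose by 0.70 and 0.48. Against Scramble, CYLD was 0.51 and OTUD7B 0.37 higher, while TAX1BP1 was not called (0.087, adjusted p = 0.186 in edgeR). TNIP1, which encodes a binding partner of A20, fell from 72.3 ± 6.95 to 29.8 ± 3.50 CPM (-1.27), opposite to TNFAIP3 itself, and N4BP1 and TRAFD1 changed by -0.84 and -0.53. Of 11 ligand genes 3 had enough counts to test, with 1 higher, 1 lower and 1 not called. TNFSF12 changed by -1.07, and the interleukin gene IL1A rose by 2.25 from 0.283 to 1.33 CPM. TNF, the best known inducer, had no count in any of the 8 libraries and 2 and 0 counts in the Scramble libraries. A zero in the 8 libraries alone needs care. Of the shared names, 188 had at most 10 counts over the 8 libraries and at least 1000 in each Scramble library. NFKBIB, RNF31, IER3 and TAP1 were such names among the 118, and no member was.

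Of 46 other listed target genes 29 were tested, with 14 higher and 8 lower and a median of 0.14. The chemokine CXCL8 was 2.08, 1.96, 1.13 and 1.15 CPM in siNTC5 and 30.3, 37.6, 31.7 and 33.4 in siHNRNPK, a rise of 4.37 on the log2 scale (SE 0.14, adjusted p = 1.05e-14). LCN2, which encodes an iron-sequestering protein of mucosal defence, rose by 4.60 from 0.319 to 7.94 CPM. TNFRSF9, a receptor of the tumour necrosis factor family, rose by 3.69 from 0.313 to 4.40 CPM. In the other direction LIF, a cytokine of the interleukin-6 family, fell from 183 ± 19.8 to 58.5 ± 3.67 CPM (-1.64), and TNFAIP8 and CCND1 changed by -0.87 and -0.74. Listed targets included large rises and clear falls, and the uniform direction of the 10 members against siNTC5 was not shared by the list. Against Scramble the members themselves went both ways.

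**Figure D5:**
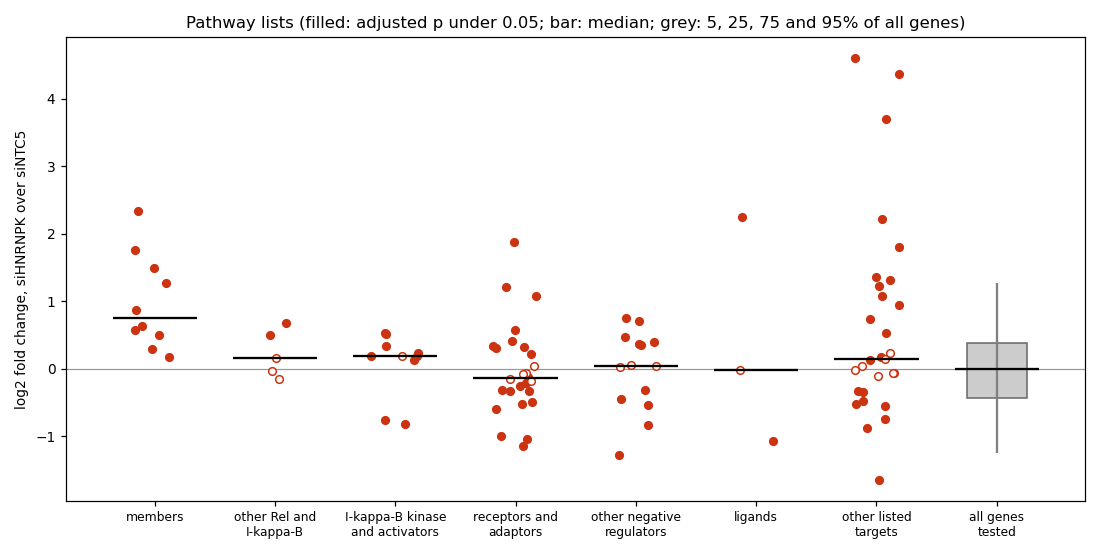
Log2 fold change, siHNRNPK over siNTC5, of each tested gene by list. Filled points have an adjusted p under 0.05 (edgeR), bars are medians, and the grey box and line give the 25th to 75th and 5th to 95th percentiles of all genes tested. All 10 members lie above 0, and the other lists spread to both sides of it.

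Chromatin was compared through 7 lists of called domains, 1 for each antibody and siRNA. They were for lamin B1, H3K9me2 (control alone), H3K9me3 and H3K27me3, a mark of Polycomb repression. The labels name replicate ChIP samples, but the lists are not split by replicate. Lamin B1 domains mark chromatin at the nuclear lamina. No member had any of its body in a lamin B1 domain in control or depleted cells. The nearest control lamin B1 domain was between 516.5 kb (RELB) and 7178.6 kb (RELA) away, and 2.96% of 13478 tested genes with a position had at least 50% of their body in one.

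NFKBIE was the exception among the members for H3K27me3. All of its body lay in a control H3K27me3 domain, where 9.83% of genes had at least 50% of theirs. In the list from depleted cells 0% was covered and the nearest H3K27me3 domain was 9.4 kb away, while 8.41% of genes were covered. The control domain had the authors' score of 0.451, and it drops out when domains below the median score of the list are removed. NFKB1 had 7.5% of its body in an H3K9me3 domain of depleted cells and none in control cells. Over all genes with a position, 2.94% had at least 50% of their body in a control H3K9me3 domain and 5.91% in one of depleted cells. The share of all genes with any base covered was not counted. The other 8 members had no base in any of the 7 lists. The lists come from 1 call per condition, so they allowed no test of the NFKBIE difference. The RNA of NFKBIE rose by 0.29.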

How the data were processed

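RNA was measured in 10 libraries of HCT116 cells, 4 siNTC5, 4 siHNRNPK and 2 Scramble, grouped by the labels. The authors deposited raw counts per gene symbol in whole numbers. Per the submitters' processing notes, STAR 2.7.1a, featureCounts and Subread 2.0.6 were used with hg38 for the table of 8 libraries, and STAR 2.7.1a, featureCounts and DESeq2 with hg19 and hg38 named for Scramble, with no role given for each build. The annotation and the strand counted are not given in the sources used here. The authors also deposited 7 domain lists with a score per domain, whose unit, caller and pooling of replicates are not given in the sources used here; their positions were used as GRCh38.

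From these counts, fits were made in R 4.3.3 with edgeR 4.0.16 and limma 3.58.1. Genes passed filterByExpr on group and were scaled by TMM, then tested by the quasi-likelihood test with terms for library kit and treatment, with p-values adjusted over all tested genes (Benjamini-Hochberg, threshold 0.05). Standard errors are the fold change over the root of the F statistic. CPM are TMM-normalised, those of Scramble in the fit of 10 libraries. The interaction of treatment with kit was fitted on the 8 libraries, and the Scramble contrasts on the shared names. Gene positions and promoter windows are from RefSeq, GRCh38.p14, and all 10 members were matched.

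The members, the pathway lists and the tests were chosen with earlier results of these data known. Named genes are the members, HNRNPK, and from each list up to 3 rises and 3 falls that passed the test, did not overlap between groups and averaged at least 1 in log2 CPM; TNF, IL1A, NFKBIB, RNF31, IER3 and TAP1 were named after their values were seen. On simulated counts with 200 of 13207 tested genes changed by 1 on the log2 scale, 188 were recovered with 10 false calls. No interaction was put in and none was called, so the power to find an interaction was not measured. The simulation used an assumed dispersion and no smaller changes, and far fewer genes changed than the 9968 of 13933 called in the data. Alternatives were DESeq2 1.42.0 (size factors and Wald test), upper-quartile scaling, library totals, other filters, robust dispersion, a minimum fold change, no kit term, a replicate block, each kit alone, Scramble as added controls and each library left out. Leaving libraries out of the interaction fit, the library totals and the filter by full design were chosen after seeing the data, as were all alternatives for the pathway lists except the DESeq2 size factors, upper-quartile scaling, the replicate block and each kit alone. No column of counts was left unmapped.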

Additional observations from a re-analysis of the deposited data

Results flagged for a closer look

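In siNTC5 replicate 2, RELB was 7.81 CPM, and its gap to the nearest other siNTC5 library was 0.950 of the range of the group, above the 95% limit of Dixon for 4 libraries. In the same library TNFAIP2 was 66.9 CPM, with a gap of 0.861 of the range. These are 2 of 20 sets of 4 libraries examined, the 10 members in each of the siNTC5 and siHNRNPK groups, and chance alone passes the limit in about 1 of 20. Without this library the log2 fold change of RELB was 0.42 (adjusted p = 0.00699 in edgeR).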

How the results depend on the processing

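Against siNTC5 all 10 members stayed higher in edgeR and DESeq2 under every alternative run, and calls at an adjusted p under 0.05 were lost for RELA, RELB, NFKBIE and NFKB2 in the fits given above. With a log2 fold change of at least 1 required, 4 members, 13 listed genes higher and 5 lower remained called. With Scramble as added controls 25 listed genes were higher and 25 lower, where 3337 and 3628 of all 13460 genes were. Leaving out 1 library at a time kept all 10 members called against siNTC5, with 36 to 40 listed genes higher and 27 to 29 lower. Labels share replicate numbers within a kit. Deviations of libraries with the same number correlated at 0.0909 to 0.403 across genes, and at -0.278 to -0.156 after kit was removed. Removing kit and group by a fit pulls the latter correlations below 0, so their sign does not settle whether the numbers pair the libraries. With a replicate block in place of kit all 10 members were higher and none lower, and no member's call changed.

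The count of members lower in Scramble than in siNTC5, 1 in the fit reported, was 3 with upper-quartile scaling, 4 with library totals, 2 with TruSeq alone and 2 with the groups alone. NFKB1 in that comparison changed sign to -0.095, -0.0068, -0.19, -0.034 and -0.055 with upper-quartile scaling, a mean of at least 50 counts, library totals, TruSeq alone and the groups alone; the cause was not tested. Members called for the interaction were 1 with no filter, where 1.11% of all genes passed, and 0 to 3 over fits that left out 1 library, where 0.0424% to 4.24% did. Leaving out 1 siHNRNPK library gave 9 to 10 members called against Scramble. In those fits 11352 to 11718 of the 14578 to 14610 genes tested were called. Leaving out 1 siNTC5 library gave 7 members called in Scramble against siNTC5. There 9377 to 9979 of the 14541 to 14657 genes tested were called. Members covered by control H3K27me3 domains fell from 1 to 0 when domains under the median score were removed, 1 member touched an H3K9me3 domain of depleted cells when any base counted, and 5 held the stricter motif. In 4 of the 20 sets of 4 libraries (NFKB1 and NFKBIE in siHNRNPK, TNFAIP3 and ICAM1 in siNTC5) the counting error was at least as large as the spread of CPM, and 2 libraries limit every Scramble value.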
